A study of Mus musculus with 7 samples.

Results

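The sodium pump (Na,K-ATPase) has catalytic alpha subunits and smaller beta subunits, and the beta genes Atp1b1, Atp1b2 and Atp1b3 are described here. They are 3 of 20142 genes with a single row in the deposited mouse table, taken by symbol. Atp1b2 was chosen by its FPKM, which were far lower in CD34-positive cells, and the others as its relatives. The CD34 difference of Atp1b2 is therefore a description and carries no test. RNA was sequenced from EML cells, a multipotent mouse haematopoietic progenitor line that forms erythroid, myeloid and lymphoid cells, sorted by the surface marker CD34. There were 3 CD34-positive and 4 CD34-negative libraries, all from Annexin V-negative live cells with no further treatment named in the labels. The labels also name strain C57BL/6, bone marrow and a postnatal age, although the source is the cell line. They write CD43 in 1 field of the CD34-negative libraries, where the titles have CD34. All libraries thus model 1 line, and no label states whether replicates were grown separately.

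The pump uses ATP to move sodium out of the cell and potassium in. The alpha subunit binds the ions and splits ATP, and the beta subunit is a glycoprotein that the alpha subunit needs to fold, leave the endoplasmic reticulum and reach the plasma membrane. Small FXYD proteins can join the complex and tune its affinity for ions. Atp1b1 is the usual beta subunit of kidney and other epithelia. Atp1b2 is best known from astrocytes, where it was named the adhesion molecule on glia. Atp1b3 is found in many tissues, blood cells among them.

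Promoter sequence was matched in RefSeq (GRCm38.p6) for 2 of the 3 members, Atp1b1 and Atp1b3. The 250 bases before the annotated start are shown because one of these genes was abundant and the other nearly silent in the same cells. Atp1b1 is at chr1:164458356-164458605 and Atp1b3 at chr9:96364432-96364681, both on the minus strand, and for Atp1b3 the more upstream of 2 listed starts is shown. Capitals mark the GC box GGGCGG on either strand.
Atp1b1: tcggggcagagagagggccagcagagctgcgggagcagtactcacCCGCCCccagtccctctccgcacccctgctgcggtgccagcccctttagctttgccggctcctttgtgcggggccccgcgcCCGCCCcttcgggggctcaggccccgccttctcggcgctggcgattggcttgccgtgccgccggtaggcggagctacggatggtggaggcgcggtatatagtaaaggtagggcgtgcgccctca
Atp1b3: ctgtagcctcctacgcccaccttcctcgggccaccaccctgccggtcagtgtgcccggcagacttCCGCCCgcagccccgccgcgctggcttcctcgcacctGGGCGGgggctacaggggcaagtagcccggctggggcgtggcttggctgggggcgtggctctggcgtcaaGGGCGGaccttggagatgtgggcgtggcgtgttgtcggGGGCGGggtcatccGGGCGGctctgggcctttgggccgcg
Both windows were rich in G and C, at 70.4% for Atp1b1 and 73.6% for Atp1b3, where the median of 27025 mouse promoters was 52%. Each held 24 CG dinucleotides, more than 88.3% of those promoters. The GC box occurred 2 times in Atp1b1 and 5 times in Atp1b3, and 32.9% of all promoters held at least 1. The window before the other Atp1b3 start held 0 GC boxes, at 76.8% G and C. TATATA, searched on both strands, occurred once in the Atp1b1 window, not in that of Atp1b3, and in 5.56% of all promoters. The GATA motif AGATAA, on either strand, was in neither window and in 10.3% of all promoters. These matches describe letters in these windows and say nothing of binding.

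Levels are in FPKM, a fragment count divided by transcript length and by the mapped fragments, so that genes can be compared with each other. In each library 8606 to 9117 genes had at least 1 FPKM. All 10 progenitor markers checked, Kit, Tal1 and Runx1 among them, passed the filter on low values. Their summed level was 902 to 1143 FPKM in CD34-positive libraries, against 652 to 1271 FPKM in CD34-negative libraries. Single markers differed more than the sum. Without overlap, 2 were higher in CD34-positive cells, Cd34 itself and Ly6a (mean 161 against 24.0 FPKM), and 1 lower, Gata2 (85.6 against 295 FPKM). Of all tested genes, 2.67% were higher and 3.01% lower without overlap. None of the 10 passed in limma. Numbers in the library descriptions tie libraries of the groups together. Number 3 marks replicate 1 of both groups, number 2 marks replicate 2, and number 4 marks CD34-positive replicate 3 and CD34-negative replicates 3 and 4. The descriptions write CD34-negative replicate 4 as 4a and CD34-positive replicate 1 as 3a, and no label explains the letter. Whether 4 and 4a came from 1 sample is not stated. They count as separate libraries here, and their mean was used as an alternative. The number 4 libraries stood apart, with 2.25% to 4.15% of their summed FPKM in ribosomal protein genes, against 27.7% to 37.1% in the other 4. A single small RNA, Mir703, held 34.6% and 13.2% of the summed FPKM in CD34-negative replicates 3 and 4. The scale of a library does not enter the ratio of one pump gene to another within it.

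Atp1b2 was low in CD34-positive and abundant in CD34-negative cells. It stood at 23.7, 10.8 and 3.05 FPKM in CD34-positive replicates 1, 2 and 3. In CD34-negative replicates 1 to 4 it stood at 100.2, 234, 157 and 264 FPKM. The groups did not overlap, and the lowest CD34-negative library was over 4 times the highest CD34-positive one. The means were 12.5 ± 10.4 FPKM in CD34-positive cells (SD, n = 3), against 189 ± 74.1 FPKM in CD34-negative cells (SD, n = 4), a log2(FPKM + 1) difference of -4.07 (SE 0.63). For comparison, 3.01% of 9259 tested genes were lower in CD34-positive cells without overlap and 2.67% were higher, a count from which nothing is read because the gene was picked for this pattern. In these bulk samples, fewer cells that express the gene and less RNA per cell cannot be told apart.

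The difference was also wide by rank. Atp1b2 exceeded 64.1%, 45.4% and 14.9% of the tested genes in CD34-positive replicates 1, 2 and 3. It exceeded 90.9%, 95.5%, 97.96% and 99.2% of them in CD34-negative replicates 1 to 4. By abundance among 20142 genes it ranked 842, 416, 189 and 76 in CD34-negative replicates 1 to 4. These ranks do not depend on the scale of a library. They do depend on its make-up, which differed in the number 4 libraries, so ranks there and elsewhere are not directly comparable.

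Atp1b3 had the opposite order in most libraries. It stood at 148, 130 and 111 FPKM in CD34-positive replicates 1, 2 and 3. The CD34-negative replicates 1 to 4 had 137, 53.9, 54.4 and 48.2 FPKM. All CD34-positive libraries were above CD34-negative replicates 2, 3 and 4, but CD34-negative replicate 1 lay among the CD34-positive ones, so the groups overlapped. Atp1b3 averaged 130 ± 18.8 FPKM in CD34-positive cells (SD, n = 3), against 73.5 ± 42.7 FPKM in CD34-negative cells (SD, n = 4). The log2 difference was 0.94 (SE 0.46), which missed the threshold in limma (adjusted p = 0.98 over all genes, unadjusted p = 0.0702). It was higher within every number, as were 29.0% of all tested genes. No gene of the table passed in that fit in either direction (0%), and at an unadjusted p under 0.05, 3.38% were higher and 2.27% lower. With the description number as a block, the log2 difference of Atp1b3 was 0.85 (SE 0.23, adjusted p = 0.109 in limma). With that block it passed in limma without CD34-negative replicate 1 (adjusted p = 0.0363) or CD34-positive replicate 1 (0.0356), where the log2 difference was 1.16 in both. These settings are in effect the same comparison, of numbers 2 and 4. The replicate 1 library that remains is alone in its block and adds nothing to the difference. It did not pass when any other single library was left out (adjusted p = 0.0783 to 0.531).

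Atp1b1 was at or near 0 in every library. It was listed at 0.109, 0 and 0 FPKM in CD34-positive replicates 1, 2 and 3. The CD34-negative replicates 1 to 4 had 0.155, 0.0324, 0.0864 and 0 FPKM. It did not pass the filter of at least 1 FPKM in 3 or more libraries, so 2 of the 3 members were tested. The number of fragments behind these values is not known, and no fold is given.

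**Figure D1:**
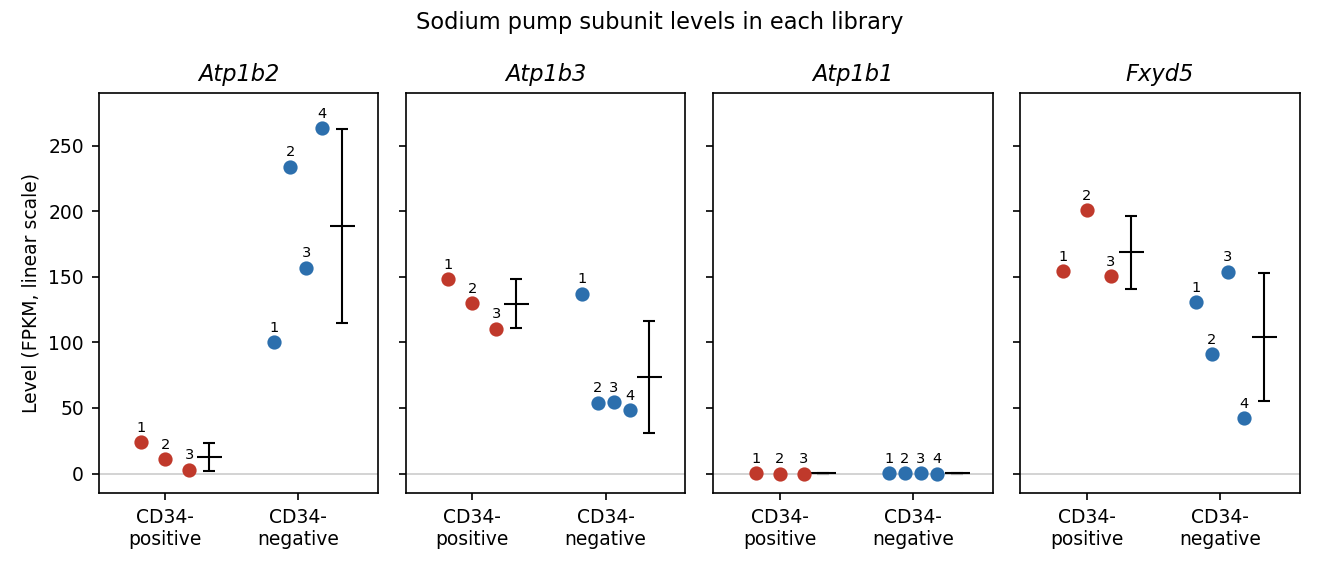
Levels of the beta subunits Atp1b2, Atp1b3 and Atp1b1 and of the FXYD protein Fxyd5 in FPKM on a linear scale. Points are libraries numbered by replicate, CD34-positive in red and CD34-negative in blue, with the group mean and SD in black. Atp1b2 is at 3.05 to 23.7 FPKM in CD34-positive libraries, against 100.2 to 264 FPKM in CD34-negative libraries.

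The make-up of the beta subunit RNA therefore differed between the groups. Of the summed FPKM of the 3 beta genes, Atp1b2 held 13.8%, 7.64% and 2.69% in CD34-positive replicates 1, 2 and 3. Its share was 42.1%, 81.3%, 74.3% and 84.5% in CD34-negative replicates 1 to 4. Atp1b3 held nearly all of the rest, 86.2% to 97.3% in CD34-positive and 15.5% to 57.8% in CD34-negative libraries. Atp1b3 was the main beta gene in all 3 CD34-positive libraries and in CD34-negative replicate 1, and Atp1b2 in the other 3 CD34-negative libraries. Atp1b1 held at most 0.0654% in any library. The share includes the gene chosen for its difference, so no test is given.

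The summed beta level was 172, 141 and 114 FPKM in CD34-positive replicates 1, 2 and 3. It was 238, 288, 212 and 312 FPKM in CD34-negative replicates 1 to 4. The lowest CD34-negative library was above every CD34-positive one, and the sum averaged 142 ± 29.3 FPKM in CD34-positive cells (SD, n = 3), against 262 ± 45.8 FPKM in CD34-negative cells (SD, n = 4). The sum includes Atp1b2, so this too carries no test.

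**Figure D2:**
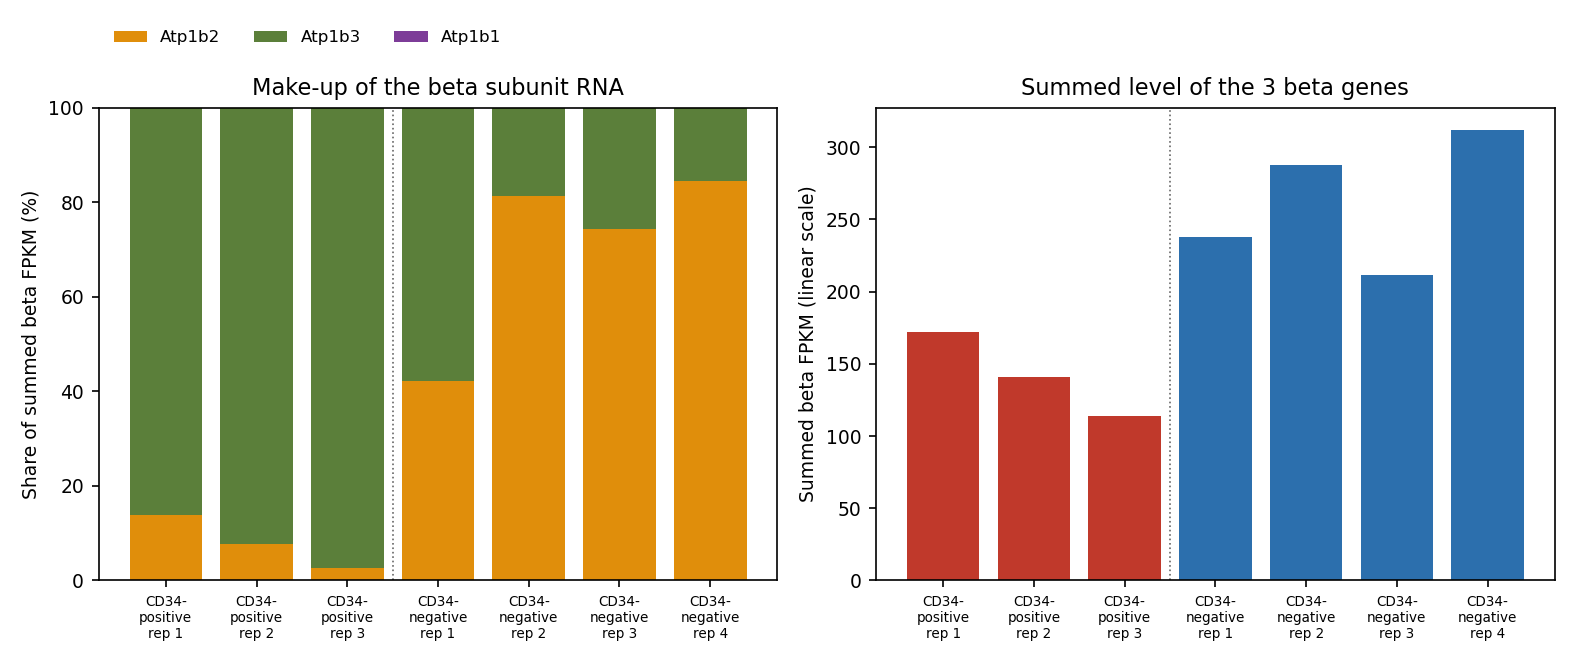
Left, the share of each beta gene in the summed beta FPKM of a library in percent. Right, the summed FPKM of the 3 beta genes on a linear scale. Each bar is 1 library, with CD34-positive libraries left of the dotted line. Atp1b2 holds 2.69% to 13.8% in CD34-positive and 42.1% to 84.5% in CD34-negative libraries, and the sum on the right is 114 to 172 FPKM in CD34-positive and 212 to 312 FPKM in CD34-negative libraries.

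Within numbers, Atp1b2 was lower in CD34-positive cells each time, as were 25.0% of all tested genes. The log2 difference was -4.32 within number 2, -2.03 within number 3 and -5.66 within number 4, where the mean of the log2 values of both CD34-negative libraries was used. Cd34 itself, which encodes the sorted marker, differed by 3.66 within number 2, by 0.68 within number 3 and by 4.93 within number 4. The order of the numbers by size was the same for both genes. CD34-negative replicate 1 had the most Cd34 of its group (91.8 FPKM, against 147 FPKM in CD34-positive replicate 1), the least Atp1b2 and the most Atp1b3. Atp1b3 differed by 1.26, 0.11 and 1.096 within numbers 2, 3 and 4.

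**Figure D3:**
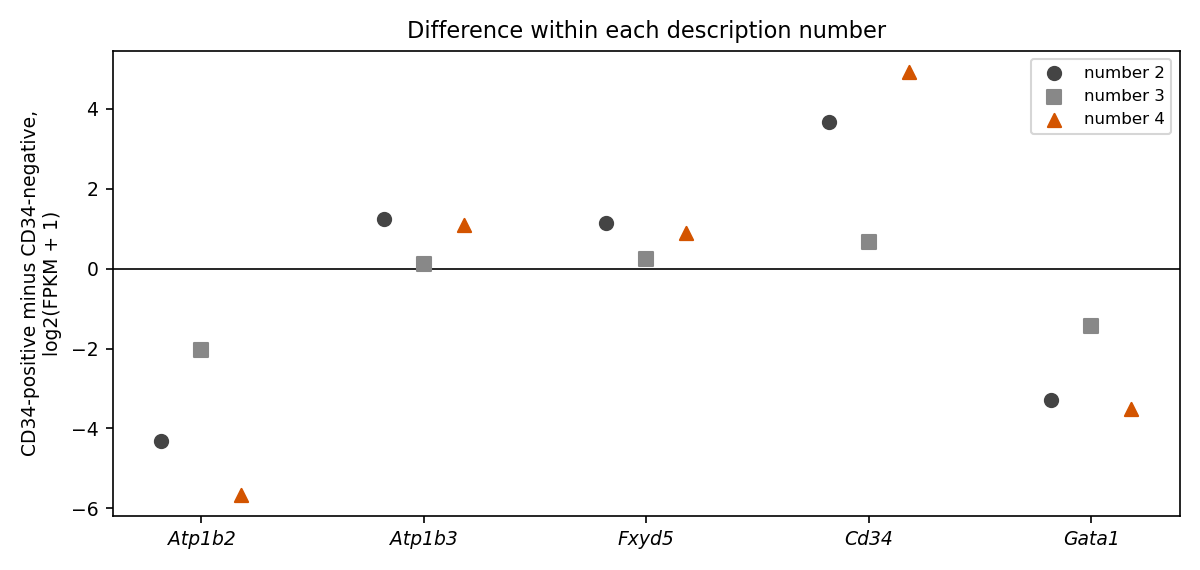
Difference in log2(FPKM + 1), CD34-positive minus CD34-negative, within description numbers 2, 3 and 4 for the pump genes Atp1b2, Atp1b3 and Fxyd5 and for Cd34 and Gata1. Each point is 1 number, and for number 4 both CD34-negative libraries were averaged. Atp1b2 is at -4.32, -2.03 and -5.66, and within number 3 every gene shown lies nearest to 0.

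Of the FXYD genes listed with the pump, Fxyd5 passed the filter on low values. Fxyd5, also called dysadherin, stood at 154, 201 and 151 FPKM in CD34-positive replicates 1, 2 and 3. The CD34-negative replicates 1 to 4 had 131, 90.8, 154 and 42.1 FPKM. Its log2 difference was 0.83 (SE 0.52, adjusted p = 0.9999 in limma) with overlapping groups. It was higher in CD34-positive cells within every number, as were 29.0% of all tested genes. In number 4 this holds for the mean of both CD34-negative libraries, while CD34-negative replicate 3 alone (154 FPKM) was above CD34-positive replicate 3 (151 FPKM).

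Other pump genes stayed below 0.5 FPKM in every library. They included the beta-like gene Atp1b4, the gastric and colonic proton pump genes Atp4a, Atp4b and Atp12a, and Fxyd1, Fxyd2, Fxyd3, Fxyd4, Fxyd6 and Fxyd7. Of these, 5 were listed at 0 in all 7 libraries.

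The beta genes were then compared between the number 4 libraries and the other 4, with the CD34 group in the fit, a contrast that did not choose Atp1b2. Atp1b2 stood at 3.05, 157 and 264 FPKM in the number 4 libraries and at 23.7, 10.8, 100.2 and 234 FPKM in the others. The log2 difference was -0.58 (SE 0.60), which missed the threshold in limma (adjusted p = 0.464), and it turned to 0.48 with quantile normalization and to 0.41 without CD34-positive replicate 3. Atp1b3 had a log2 difference of -0.57 (SE 0.33, adjusted p = 0.202 in limma), which turned to 0.36 with quantile normalization. In that contrast 5.93% of tested genes passed as higher and 30.7% as lower, with a median log2 difference of -0.29 over all genes. Quantile normalization gave 1529 higher and 1478 lower genes in place of 549 higher and 2842 lower, with a median of 0.02.

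In the wider lists of ion pumps and transporters, the genes without overlap were 1 higher and 1 lower of 18 P-type pumps, 2 higher and 2 lower of 22 transport genes and none of 12 regulators, where 2.67% of all tested genes were higher and 3.01% lower without overlap. Of 26 other P-type pumps, which move calcium, copper, lipids or other cargo, 18 were tested and none passed in limma (at an unadjusted p under 0.05, 1 was higher and 1 lower). The median log2 difference was 0.15, beside 0.09 over all tested genes. The lipid flippase gene Atp8b2 averaged 5.37 FPKM in CD34-positive cells, against 14.4 FPKM in CD34-negative cells, without overlap. Another, Atp10a, averaged 7.73 FPKM in CD34-positive cells, against 3.40 FPKM in CD34-negative cells, also without overlap. Of the flippase genes with overlapping groups, Atp8b4 averaged 59.5 FPKM in CD34-positive cells, against 26.5 FPKM in CD34-negative cells. Atp11a averaged 8.20 FPKM in CD34-positive cells, against 3.79 FPKM in CD34-negative cells.

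Of 30 other sodium and potassium transport genes, 28 were listed by symbol and 22 tested, and none passed in limma (at an unadjusted p under 0.05, 1 was higher and 1 lower; median log2 difference 0.11). The potassium channel Kcnk5 averaged 5.27 FPKM in CD34-positive cells, against 2.76 FPKM in CD34-negative cells without overlap. Of the cotransporter family, with overlapping groups, Slc12a7 averaged 8.42 FPKM in CD34-positive cells, against 5.02 FPKM in CD34-negative cells. Slc12a9 averaged 3.71 FPKM in CD34-positive cells, against 1.72 FPKM in CD34-negative cells. Of 16 regulators and chaperones, 12 were tested and none passed in limma (0 at an unadjusted p under 0.05; median log2 difference 0.10). Those with the smallest p, Sgk3, Nedd4l, Prkaca and the chaperone Hspa5, had log2 differences of 0.66, 0.61, -0.44 and 0.59 with overlapping groups.

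Genes with a pattern like that of Atp1b2 were ranked by Pearson's r of log2(FPKM + 1) over the 7 libraries, among 7247 genes. Since Atp1b2 separates the groups, so do the genes most like it, and r is a description. Among the 10 highest were Nrbf2 (r = 0.99), Mrvi1 (0.98), Mns1 (0.96), Gata1 (0.96), Csrp3 (0.95), Cetn4 (0.95), Adcy7 (0.95) and Slc7a6 (0.95). Their amplitude differed widely. Mrvi1 stood at 4.23, 2.22 and 1.503 FPKM in CD34-positive replicates 1, 2 and 3. The CD34-negative replicates 1 to 4 had 12.2, 18.8, 22.7 and 25.5 FPKM, without overlap. Nrbf2, an autophagy factor, was at 11.8 to 13.9 FPKM in CD34-positive libraries, against 16.0 to 17.3 FPKM in CD34-negative libraries. Gata1, the erythroid transcription factor, was at 4.61 to 24.0 FPKM in CD34-positive libraries, against 55.8 to 167 FPKM in CD34-negative libraries. None of the 10 passed in limma over all genes.

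For Atp1b3 the 5 highest were Ppp1r13b (r = 0.997), H2afy (0.99), Ttyh2 (0.99), Csad (0.99) and Hadh (0.99). Each of them, like Atp1b3, was low in CD34-negative replicates 2, 3 and 4 and high in CD34-negative replicate 1. H2afy, which encodes the histone variant macroH2A1, stood at 228, 186 and 188 FPKM in CD34-positive replicates 1, 2 and 3. The CD34-negative replicates 1 to 4 had 206, 85.8, 81.3 and 77.8 FPKM.

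**Figure D4:**
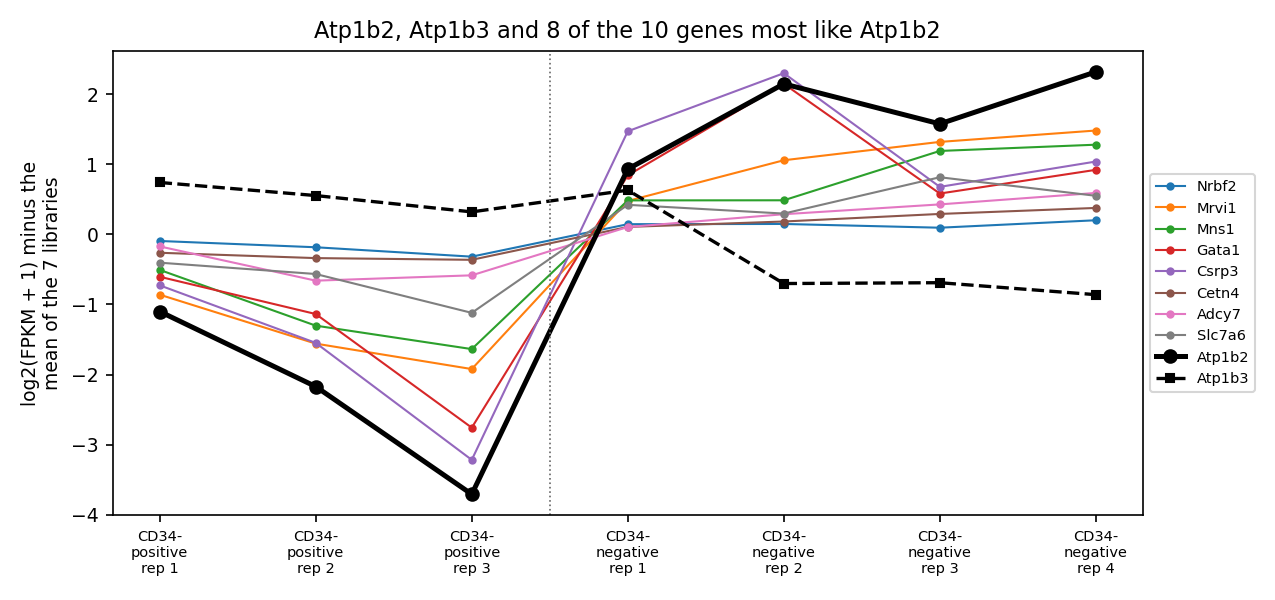
Log2(FPKM + 1) minus the mean of the 7 libraries for Atp1b2 (thick line), Atp1b3 (dashed) and 8 of the 10 genes most like Atp1b2, with CD34-positive libraries left of the dotted line. Lines only join the points of 1 gene. Nrbf2 and Cetn4 have a small amplitude, and Atp1b3 stays high in CD34-negative replicate 1.

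Markers of maturing blood cells differed by lineage. By group mean over all listed markers, tested or not, erythroid and mast cell markers were mostly lower in CD34-positive cells, as Atp1b2 was. Neutrophil and monocyte markers were mostly higher by the same measure. The part of these lineages in the result was not tested. None of these markers passed in limma. Of all tested genes, 3.01% were lower in CD34-positive cells without overlap and 2.67% higher. The filter on low values can be met by the CD34-negative libraries alone. The erythroid genes Ermap, Rhag, Rhd and Kel and the mast cell genes Mcpt1 and Tpsab1 passed it that way, with at most 0.850 FPKM in CD34-positive libraries. The counts below include them, so nothing is read from these counts. Of 20 erythroid markers, 18 were listed and 13 tested, and 9 of the 13 were lower in CD34-positive cells without overlap and none higher. Their summed level was 135 to 740 FPKM in CD34-positive libraries, against 224 to 2298 FPKM in CD34-negative libraries, with overlap, and Hbb-b1 had the widest range of these markers (1.40 to 624 FPKM in CD34-positive libraries, against 30.4 to 1405 FPKM in CD34-negative libraries). Of 15 mast cell and basophil markers, 14 were tested and 7 were lower without overlap and none higher, with a summed level of 4015 to 5090 FPKM in CD34-positive libraries, against 5925 to 21897 FPKM in CD34-negative libraries. Of 11 neutrophil and monocyte markers 6 were tested and 1 was higher without overlap and none lower (median log2 difference 1.58), with a summed level of 1257 to 2384 FPKM in CD34-positive libraries, against 130 to 1339 FPKM in CD34-negative libraries. The highest erythroid sum was in CD34-negative replicate 2 and the highest mast cell sum in CD34-negative replicate 3, while Atp1b2 was highest in CD34-negative replicate 4. Of 10 megakaryocyte markers, 8 were tested and 2 were lower without overlap and none higher (median log2 difference 0.28), with a summed level of 276 to 800 FPKM in CD34-positive libraries, against 284 to 930 FPKM in CD34-negative libraries.

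Markers of glia, the cells Atp1b2 is best known from, were mostly at or near 0. Of 10 glial markers 7 stayed below 0.5 FPKM in every library, and Slc1a2, Slc1a3 and Gjb6 were listed at 0 in all. Their summed level was 2.97 to 4.56 FPKM in CD34-positive libraries, against 0.967 to 4.19 FPKM in CD34-negative libraries. The remaining 3 glial markers did not go one way. The astrocyte filament Gfap was at 0 to 0.206 FPKM in CD34-positive libraries, against 0.281 to 3.16 FPKM in CD34-negative libraries. The myelin gene Mbp was at 1.22 to 2.10 FPKM in CD34-positive libraries, against 0.225 to 1.25 FPKM in CD34-negative libraries. The growth factor receptor gene Fgfr3 was at 1.26 to 2.13 FPKM in CD34-positive libraries, against 0.216 to 1.43 FPKM in CD34-negative libraries. Mbp and Fgfr3 were the glial markers that passed the filter on low values, and neither passed in limma (both higher at an unadjusted p under 0.05). Of 10 stromal and endothelial markers 8 stayed below 0.5 FPKM, and Pdgfrb and Pecam1 carried the sum of 97.2 to 160 FPKM in CD34-positive libraries, against 53.0 to 134 FPKM in CD34-negative libraries.

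Measured genes next to Atp1b2 in RefSeq were at or near 0 or had a smaller CD34 difference. On one side Shbg and Sat2 were at or near 0, with a highest value of 0.106 FPKM in any library. On the other side Trp53 was at 56.1 to 153 FPKM in CD34-positive libraries, against 92.4 to 243 FPKM in CD34-negative libraries (log2 difference -0.63, SE 0.55, adjusted p = 0.9999 in limma). Wrap53 was at 5.46 to 13.0 FPKM in CD34-positive libraries, against 7.11 to 19.6 FPKM in CD34-negative libraries. Trp53 and Wrap53 were both lower in CD34-positive cells within every number, as were 25.0% of all tested genes. With the description number as a block, the log2 difference was -0.82 for Trp53 (SE 0.17, adjusted p = 0.0931 in limma). For Wrap53 it was -0.33 (SE 0.15, adjusted p = 0.250 in limma). No gene of that table overlaps Atp1b2 or Atp1b3, and Nme7 overlaps Atp1b1. Nme7 was at 5.05 to 11.3 FPKM in CD34-positive libraries, against 5.10 to 8.07 FPKM in CD34-negative libraries. Near Atp1b3, Tfdp2 was at 1.83 to 6.79 FPKM in CD34-positive libraries, against 1.66 to 7.86 FPKM in CD34-negative libraries, and Gk5 stayed below 1 FPKM. Blzf1, near Atp1b1, was at 3.38 to 4.87 FPKM in CD34-positive libraries, against 3.30 to 6.56 FPKM in CD34-negative libraries.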

How the data were processed

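The authors deposited FPKM for 7 libraries in 1 table with gene symbols. The submitters' processing notes name TopHat, TopHat2 and Cuffdiff and the builds mm9 and mm10. For versions, annotation and strand setting nothing is stated in the sources, so overlapping genes are uncertain. Of 20464 rows, 322 rows of 105 repeated symbols were left out. Depth in fragments is unknown, and no count model or counting interval was used. In low values, the ratio of the CD34-negative to the same-numbered CD34-positive library clustered at a value that would give the CD34-negative library 1.75 times the depth in number 3 (166 of 454 genes within 0.5%), 1.12 times in number 2 (28 of 517), and 0.812 (136 of 635) and 1.44 times (174 of 845) in number 4.

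The 9259 genes that reached 1 FPKM in 3 or more libraries were compared as log2(FPKM + 1) with limma 3.58.1 in R 4.3.3 (mean-variance trend, two-sided, Benjamini-Hochberg over all tested genes, threshold 0.05). The procedure was tested on simulated data with independent noise and only the compared effect. That run does not show how the CD34 fit performs beside a difference between the number 4 libraries and the rest. A second fit compared libraries numbered 4 with the rest, with CD34 group as a covariate. The p-values rest on the spread among the libraries alone, possibly a technical one. Alternatives were a pseudocount of 0.1, other filters, quantile and median-ratio scaling, no trend, number blocks, the mean of CD34-negative replicates 3 and 4, and leaving out libraries. The description numbers were taken to pair libraries, since deviations from the group means correlated at 0.70, 0.92, 0.82 and 0.85 for same-numbered libraries, although number 4 is also the kind of library that stands apart.

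Named genes are the members, Cd34, the pump list, up to 4 genes per further list by smallest p, the genes most like each tested member by Pearson's r among genes averaging at least 5 FPKM, and the 3 nearest annotated genes on each side. Atp1b1, too low for ranking, got no such list. Which of these, and which markers, are given with values was chosen after their values were seen. Members and lists were chosen with earlier results of these data known. Promoters are from RefSeq GRCm38.p6. Since the build of the table is open, the coordinates given are those of the RefSeq promoter windows, not of the table's genes. Some genes these rules name are not reported here.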

Additional observations from a re-analysis of the deposited data

Results flagged for a closer look

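Of 19 values checked in the 4 CD34-negative libraries on the log2 scale or as shares and ratios, 1 had a library far from the other 3. Atp1b3 stood at 137 FPKM in CD34-negative replicate 1 and at 48.2 to 54.4 FPKM in the other 3, so that the gap to the nearest library was 0.886 of the group's range. Chance flags about 1 in 20 such groups, and 5.95% of the 9259 tested genes were beyond the same limit.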

How the results depend on the processing

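The log2 difference of Atp1b2 between CD34-positive and CD34-negative cells, given without a test, stayed negative in all settings, from -3.38 to -4.68 when 1 library was left out and from -3.18 to -5.08 with the block as well. That of Atp1b3 stayed positive (0.79 to 1.29 when 1 library was left out, 0.67 to 1.16 with the block as well). It passed in limma only with the replicate block and without either replicate 1 library, settings that are in effect the same comparison. The number of genes past the threshold in limma was 0 and ranged from 0 to 10 when 1 library was left out, the 10 without CD34-negative replicate 1. With the replicate block it was 0, and 0 to 312 when 1 library was also left out. It was 312 and 311 without the CD34-negative and the CD34-positive replicate 1, again in effect the same comparison. It was 157 without CD34-negative replicate 3 and 1 when CD34-positive replicate 3 was left out. The cause was not tested. At an unadjusted p under 0.05 the block gave 1188 higher and 846 lower genes, in place of 313 and 210. The block changed no other call on a member.

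Between number 4 and the other libraries, the log2 difference of Atp1b2 was 0.48 and that of Atp1b3 0.36 with quantile normalization, both reversed. Without 1 library they ranged from -1.14 to 0.41 and from -0.87 to -0.20, reversed for Atp1b2 without CD34-positive replicate 3 (0.41). The number of genes past the threshold there was 3391, and 1143 to 3752 without 1 library, with 2106 without CD34-negative replicate 4 and 1143 without CD34-positive replicate 3. The combined block and left-out settings were chosen after seeing the data. The unknown depth limits what can be said of values near 0, such as those of Atp1b1.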
